A study of Mus musculus with 9 samples.

Results

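The genes described here encode the enzymes and adaptors that shorten poly(A) tails, remove caps and degrade messenger RNA. They were chosen by symbol, from a list of 47 genes, as the probe sets annotated to exactly 1 of those genes, with 1 probe set per gene (the highest mean over the 9 arrays). 46 of the 47 had such a probe set, of 19938 genes with a probe set of their own on the array, and Upf3b was not analysed here. All 46 passed the filter on low signal (at least 4 on the log2 scale in at least 3 of the 9 arrays), which kept 17324 genes for the tests. RNA was measured in mouse oocytes arrested at metaphase II, with 3 arrays each of Dicer knockout, Dgcr8 knockout and wild-type oocytes of the strain C57BL/6. The oocytes were ovulated after gonadotropin treatment, collected 16 h after human chorionic gonadotropin and freed of cumulus cells with hyaluronidase. Neither how the knockouts were made, nor the age of the females, nor the number of oocytes per array is given in the sources used here. The arrays are labelled as biological replicates.

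Most messenger RNAs are degraded in an ordered way. Deadenylases, chiefly the CCR4-NOT complex and the PAN2-PAN3 pair, shorten the poly(A) tail. The shortened 3′ end is then bound by the LSM ring, which helps the DCP2 enzyme to remove the cap so that XRN1 can digest the RNA from its 5′ end, while the RNA exosome digests RNA from the 3′ end. Nonsense-mediated decay uses the helicase UPF1 and the SMG proteins to degrade transcripts with early stop codons. Fully grown mouse oocytes make almost no new RNA and store their transcripts, and the machinery for their removal becomes active during meiotic maturation, ahead of the clearance of maternal RNA. MicroRNAs act largely through the same CCR4-NOT and decapping enzymes. Dgcr8 is needed to make microRNAs from primary transcripts, whereas Dicer makes both microRNAs and the endogenous small interfering RNAs of oocytes.

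The values are log2 signals, 1 per probe set and array. A log2 difference of 1 is a 2-fold difference. Signals of different probe sets depend on their probes and were not ranked against each other. The oocyte markers Gdf9, Bmp15 and Zp3 had mean log2 signals of 12.48, 12.35 and 11.95 in Dicer knockout, 12.39, 12.36 and 11.46 in Dgcr8 knockout and 12.42, 12.36 and 11.55 in wild-type oocytes. Of 12 oocyte markers, Zp2 was called higher in Dicer knockout oocytes against wild-type (log2 difference 0.40, limma adjusted p 0.0199) and against Dgcr8 knockout oocytes (0.47, 0.0085), and Zp3 against Dgcr8 knockout oocytes (0.49, 0.0310). The summed level of 11 cumulus and granulosa markers lay between 9.91 and 10.08 in Dicer knockout, 10.16 and 10.43 in Dgcr8 knockout and 10.20 and 10.31 in wild-type arrays (log2 of the sum), and none of the 11 was called. The brightest of them was Nr5a2, at 9.13 to 9.56 in Dicer knockout, 9.62 to 10 in Dgcr8 knockout and 9.71 to 9.88 in wild-type arrays, while the other 10 lay between 4.23 and 6.92, so this sum mostly follows 1 gene. Of 7 immune markers Cd68 was called higher in Dicer knockout against wild-type (limma adjusted p 0.011) and Dgcr8 knockout oocytes (0.0465). Myh11, among 7 oviduct markers, was called lower against both (0.00567 and 0.00426). The immune marker Lyz2 was at 3.68, 3.93 and 6.13 in Dicer knockout arrays 1 to 3. It was at 3.77 to 4.01 in Dgcr8 knockout and 3.87 to 4.16 in wild-type arrays, and was not called. The summed immune level lay between 8.25 and 8.77 in Dicer knockout, 8.07 and 8.17 in Dgcr8 knockout and 7.91 and 8.21 in wild-type arrays, and the summed oviduct level between 9.79 and 9.97, 10.23 and 10.26, and 10.18 and 10.25 in Dicer knockout, Dgcr8 knockout and wild-type arrays. The oviduct sum likewise mostly follows Myh11, at 9.18 to 9.46 in Dicer knockout, 9.68 to 9.85 in Dgcr8 knockout and 9.7 to 9.81 in wild-type arrays. Their part in the results below was not tested. Each targeted gene was lower in its own knockout, Dgcr8 by a log2 difference of -3.24 and Dicer1 by -0.95 (limma adjusted p 1.06e-05 and 1.01e-05). Dgcr8 was also lower in Dicer knockout than in wild-type oocytes, without overlap but not called (-0.50, limma adjusted p 0.0644), and was called in 4 of the 18 alternatives: with the floor at 6 (0.0410) and without Dgcr8 knockout replicate 1 (0.0497) or 2 (0.0469) or replicate 3 of the Dicer knockout (0.0276). The number of oocytes per array is not given, and an array gives 1 value per probe set. Fewer oocytes with a transcript and less of it in each oocyte therefore cannot be told apart.

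Decay genes were called in both directions in Dicer knockout oocytes. In Dicer knockout against wild-type oocytes 12 of the 46 members passed the test (limma, adjusted p under 0.05 over all 17324 genes), 6 higher and 6 lower, and 2 of them (Lsm4 and Exosc9) changed by at least 2-fold, as 2.07% of all genes did. Over all genes 11.3% were called, 4.87% higher and 6.47% lower, against 26.1% of the members. Calls were more frequent among genes of higher signal: of genes with a mean signal of at least 6 the share called was 17.5%, against 12 of 44 members (27.3%), and with a mean of at least 9 it was 20.6%, against 6 of 27 members (22.2%). At the higher of these signals the share of members called was thus near that of all genes. The shares over all genes tested that are set beside the role groups below were not matched for signal. The higher calls were in the LSM ring (Lsm4, Lsm1), the exosome (Exosc9, Exosc2, Exosc8) and the adaptor Tob1. The lower calls were in the deadenylases (Cnot6, Cnot1, Cnot6l, Pan3), the decapping enzyme Dcp2 and the nonsense-mediated decay kinase Smg1. The median log2 difference of the 46 members was -0.02, against -0.03 over all genes tested. Of the 12 calls, 6 (Lsm4, Exosc9, Tob1, Lsm1, Cnot6 and Dcp2) were made under all 18 alternative fits, and the other 6 were lost under some of them. Without the trend and robust settings Cnot1 (limma adjusted p 0.0619), Cnot6l (0.179), Pan3 (0.0753) and Exosc8 (0.109) were not called. With only the 6 arrays compared, Cnot1 (0.0533), Pan3 (0.0705), Exosc2 (0.0659) and Exosc8 (0.0794) were not.

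**Figure D1:**
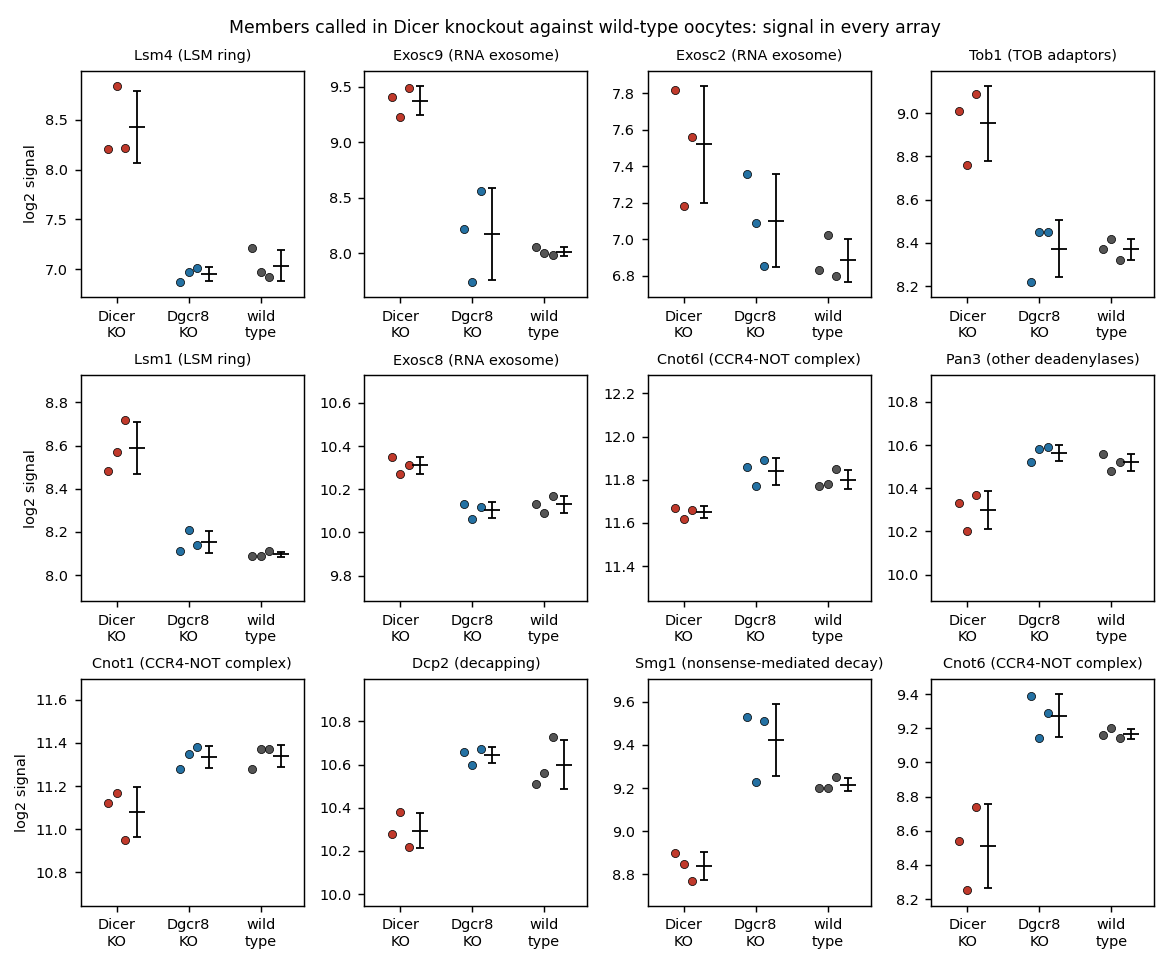
Log2 signal of the 12 members called in Dicer knockout against wild-type oocytes, 1 point per array, with the mean and SD of the 3 arrays of a genotype beside them; panels run from the highest log2 difference to the lowest and each has its own vertical scale. In every panel the 3 Dicer knockout arrays lie apart from the 3 wild-type arrays, above them in the first 6 panels and below them in the last 6.

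In Dgcr8 knockout against wild-type oocytes limma called 0 of the 46 members, and 0 in each of the alternative fits. Over all genes 0.0231% were called, so a count of 0 is near the share of all genes. At an unadjusted p under 0.05 stood 2 of the 46, against 2.64% of all genes. These were the kinase Smg1 (log2 difference 0.21, unadjusted limma p 0.0394) and the ring subunit Lsm2 (-0.31, unadjusted limma p 0.0491). For none of the 46 did the Dgcr8 knockout and wild-type arrays stand apart, against 6.54% of all genes. The log2 differences ran from -0.38 for Lsm6 (95% interval -0.87 to 0.12) to 0.22 for Exosc2, with a median of 0.00. Of the 7 LSM ring subunits 6 lay below 0, against 51.3% of all genes, and the median of the ring was -0.17. The 95% interval lay within 1 of 0 (log2) for all 46 members and within 0.5 for 40 of them. A change of 2-fold or more thus lies outside the interval of every member.

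**Figure D2:**
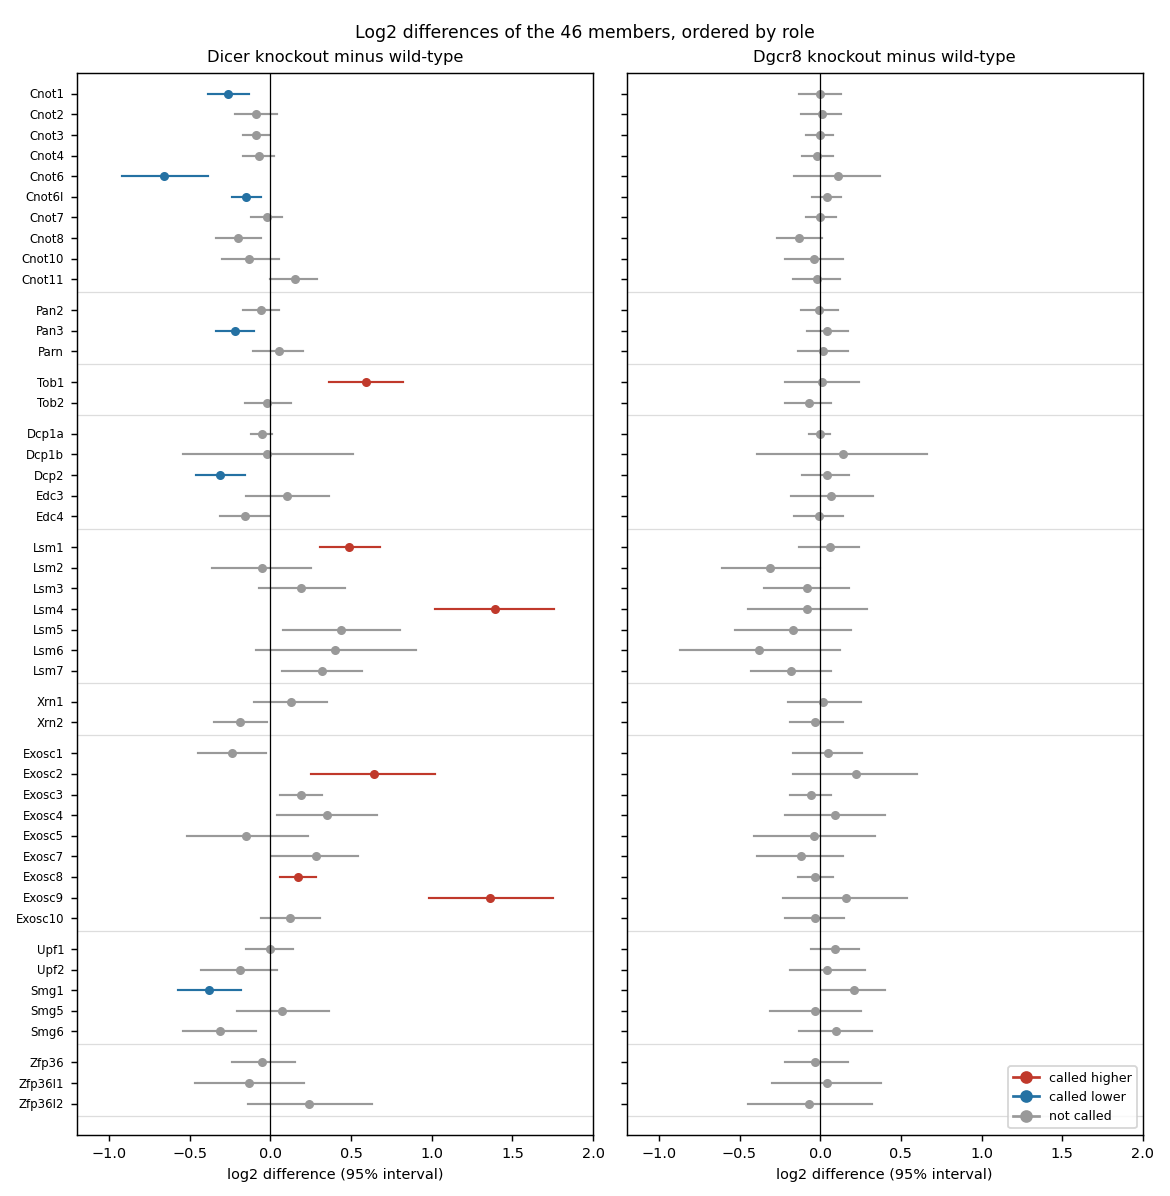
Log2 difference of the 46 members with its 95% interval from the limma fit, Dicer knockout minus wild-type at left and Dgcr8 knockout minus wild-type at right, in blocks by role from the CCR4-NOT complex at the top to the ZFP36 family at the bottom. In the left panel 6 members are called higher and 6 lower, with Lsm4 (1.39) and Exosc9 (1.36) the farthest to the right and Cnot6 (-0.66) the farthest to the left; in the right panel no member is called.

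Among the deadenylases, 3 of the 10 members from the CCR4-NOT complex were called lower in Dicer knockout oocytes and none higher, where 6.47% of all genes were called lower. In either direction 17.5% of genes with a mean signal of at least 6 were called, and 20.6% of those with at least 9. Of the 10 log2 differences of the complex 9 were below 0, against 57.9% of all genes tested, and their median was -0.11. Cnot9, a subunit counted among the further genes below, had a difference of 0.05 and was not called (limma adjusted p 0.664). It is named outside the naming rule, with its value known. Cnot6, a CCR4-type nuclease of the complex, had log2 signals of 8.54, 8.25 and 8.74 in Dicer knockout, 9.39, 9.14 and 9.29 in Dgcr8 knockout and 9.16, 9.2 and 9.14 in wild-type oocytes. All 3 Dicer knockout arrays lay below the other 6. Its log2 difference was -0.66 ± 0.12 (SE), or 0.634 times the wild-type signal (limma adjusted p 0.00579). Cnot6l, the other CCR4-type nuclease, which removes tails of maternal RNA in mouse oocytes, was at 11.67, 11.62 and 11.66 in Dicer knockout, 11.86, 11.77 and 11.89 in Dgcr8 knockout and 11.77, 11.78 and 11.85 in wild-type oocytes. The groups did not overlap, but the difference was small, -0.15 ± 0.040 (SE; limma adjusted p 0.0359). The Cnot6l call was lost without wild-type replicate 1 (0.0670), 2 (0.0773) or 3 (0.142), Dgcr8 knockout replicate 1 (0.0534), or Dicer knockout replicate 1 (0.0676), 2 (0.0865) or 3 (0.0601). Cnot1, the scaffold on which the complex is built, had log2 signals of 11.12, 11.17 and 10.95 in Dicer knockout, 11.28, 11.35 and 11.38 in Dgcr8 knockout and 11.28, 11.37 and 11.37 in wild-type oocytes. Its difference of -0.26 ± 0.059 (SE; limma adjusted p 0.0190) was lost without wild-type replicate 2 (0.0739) or 3 (0.0771). A second probe set of Cnot1 had a log2 difference of -0.11 and was not called (limma adjusted p 0.609 in a fit over all probe sets).

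Neither CAF1-type nuclease was called. Cnot7 had mean log2 signals of 11.60 in Dicer knockout, 11.62 in Dgcr8 knockout and 11.62 in wild-type oocytes, with a log2 difference of -0.02 ± 0.044 (SE) between Dicer knockout and wild-type. Cnot8 was at 10.57, 10.47 and 10.59 in Dicer knockout, 10.52, 10.69 and 10.63 in Dgcr8 knockout and 10.68, 10.83 and 10.71 in wild-type oocytes. Its Dicer knockout arrays lay below the wild-type arrays, but the difference of -0.20 was not called (limma adjusted p 0.0742). Of the other subunits, Cnot2 and Cnot3 of the NOT module, the ubiquitin ligase Cnot4 and Cnot10 had log2 differences between -0.13 and -0.07, and Cnot11 of 0.15, none called.

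The PAN2-PAN3 deadenylase makes the first cuts into long tails. Pan3, the subunit that brings the enzyme to RNA, had log2 signals of 10.33, 10.20 and 10.37 in Dicer knockout, 10.52, 10.58 and 10.59 in Dgcr8 knockout and 10.56, 10.48 and 10.52 in wild-type oocytes. It fell by 0.22 ± 0.055 on the log2 scale (SE; limma adjusted p 0.0293), a call lost without wild-type replicate 1 (0.112), 2 (0.0623) or 3 (0.0878) or Dicer knockout replicate 1 (0.0575) or 2 (0.0593). Pan2, the nuclease itself, and Parn, a separate poly(A)-specific nuclease, had differences of -0.06 and 0.05 and were not called.

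Tob1 and Tob2 are related adaptors that tie CAF1-type nucleases to poly(A)-binding protein. Tob1 had log2 signals of 9.01, 8.76 and 9.09 in Dicer knockout, 8.22, 8.45 and 8.45 in Dgcr8 knockout and 8.37, 8.42 and 8.32 in wild-type oocytes. The Dicer knockout arrays lay above all others, and Tob1 rose by 0.59 ± 0.10 (log2, SE), 1.5-fold (limma adjusted p 0.00515). Tob2 was at 8.96, 8.96 and 9.00 in Dicer knockout and 8.96, 8.95 and 9.06 in wild-type oocytes, a difference of -0.02 ± 0.066 (SE).

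The stretches of 200 bases before the annotated starts of Tob1 and Tob2 are shown because only Tob1 was called of this pair, with those of Cnot6, the most lowered member, and of Exosc2 and Exosc8, both called higher. They come from RefSeq (GRCm38.p6), read 5′ to 3′ on the strand of the gene, with 38 of the 46 members matched in that table. Capitals mark the matches, on either strand, to 7 motifs searched: the CCAAT box (CCAAT), the GC box (GGGCGG), the TATA box (TATAAA), an ETS core (CCGGAAG), an E box (CACGTG), the NRF1 motif and the cyclic AMP response element (TGACGTCA). Where matches overlap, the capitals run on.
Tob1, chr11:94211254-94211453 (plus strand): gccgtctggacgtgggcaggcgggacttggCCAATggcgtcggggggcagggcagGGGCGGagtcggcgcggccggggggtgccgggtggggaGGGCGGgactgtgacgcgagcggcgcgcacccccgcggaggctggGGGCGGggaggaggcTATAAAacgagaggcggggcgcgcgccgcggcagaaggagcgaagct
Tob2, chr15:81858327-81858526 (minus strand): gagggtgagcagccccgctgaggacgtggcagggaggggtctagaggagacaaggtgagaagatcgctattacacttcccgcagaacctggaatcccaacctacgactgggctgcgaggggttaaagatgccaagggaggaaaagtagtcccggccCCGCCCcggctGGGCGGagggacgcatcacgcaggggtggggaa
Cnot6, chr11:49712723-49712922 (minus strand): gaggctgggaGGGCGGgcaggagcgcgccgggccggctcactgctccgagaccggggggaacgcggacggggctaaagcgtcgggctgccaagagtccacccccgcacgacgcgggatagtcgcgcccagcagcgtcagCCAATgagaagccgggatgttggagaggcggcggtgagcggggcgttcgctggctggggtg
Exosc2, chr2:31670515-31670714 (plus strand): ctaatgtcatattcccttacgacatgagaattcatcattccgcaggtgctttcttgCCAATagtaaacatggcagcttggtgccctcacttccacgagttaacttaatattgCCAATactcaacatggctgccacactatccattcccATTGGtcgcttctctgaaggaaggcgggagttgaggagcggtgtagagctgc
Exosc8, chr3:54735365-54735564 (minus strand): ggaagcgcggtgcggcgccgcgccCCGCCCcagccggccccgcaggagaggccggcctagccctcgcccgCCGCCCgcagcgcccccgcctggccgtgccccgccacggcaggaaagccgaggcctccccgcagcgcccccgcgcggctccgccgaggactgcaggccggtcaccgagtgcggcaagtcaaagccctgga

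The Tob1 window held 3 GC boxes, 1 CCAAT box and 1 TATA box, and the Tob2 window 2 GC boxes alone. The Cnot6 window held 1 CCAAT box and 1 GC box, the Exosc2 window 3 CCAAT boxes and the Exosc8 window 2 GC boxes. The GC box was found in 27 of the 38 members with a window (71.1%) and in 31.0% of 32851 such windows over all genes, the CCAAT box in 31.6% and 29.3%, the TATA box in 5.26% and 9.96%, the ETS core in 18.4% and 6.29%, the E box in 5.26% and 5.26%, the NRF1 motif in 18.4% and 3.49%, and the cyclic AMP response element in 2.63% and 1.47%. A member counts here if any of its windows held the motif, whereas the shares over all genes count single windows. The 2 percentages of a motif are therefore unlike measures, and no enrichment was tested. These matches describe letters only. Whether a factor binds there was not measured.

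In decapping, only the enzyme itself was called of 5 genes, where 11.3% of all genes were, and 20.6% of those with a mean signal of at least 9. Dcp2, which cuts the cap and whose protein is among the decay factors that accumulate as mouse oocytes mature, had log2 signals of 10.28, 10.38 and 10.22 in Dicer knockout, 10.66, 10.60 and 10.67 in Dgcr8 knockout and 10.51, 10.56 and 10.73 in wild-type oocytes. The Dicer knockout arrays lay below the other 6. Dcp2 fell by 0.31 ± 0.066 (log2, SE), to 0.807 times the wild-type signal (limma adjusted p 0.0133). Its activator Dcp1a was at 12.08, 12.08 and 12.10 in Dicer knockout and 12.16, 12.13 and 12.14 in wild-type oocytes. These 2 groups did not overlap either, but the difference of -0.05 was not called (limma adjusted p 0.312). The paralogue Dcp1b varied widely, from 6.71 to 7.58 in Dicer knockout and from 6.89 to 7.59 in wild-type oocytes. The enhancers of decapping Edc3 and Edc4 had differences of 0.10 and -0.16, not called.

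The LSM ring that binds shortened 3′ ends had 2 of 7 subunits called higher in Dicer knockout oocytes, where 4.87% of all genes were. In either direction 17.5% of genes with a mean signal of at least 6 were called. The median log2 difference of the 7 subunits was 0.40, but 0.26 without wild-type replicate 3. Lsm4, a subunit of both the cytoplasmic decay ring and the nuclear ring on U6 RNA, had log2 signals of 8.21, 8.84 and 8.22 in Dicer knockout, 6.87, 6.97 and 7.01 in Dgcr8 knockout and 7.21, 6.97 and 6.92 in wild-type oocytes. It rose by 1.39 ± 0.16 (log2, SE), 2.62-fold, the largest difference of the 46 (limma adjusted p 0.000519). Lsm1, the subunit particular to the decay ring, was at 8.48, 8.57 and 8.72 in Dicer knockout, 8.11, 8.21 and 8.14 in Dgcr8 knockout and 8.09, 8.09 and 8.11 in wild-type oocytes. It rose by 0.49 ± 0.083 (SE), 1.41-fold (limma adjusted p 0.00394).

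The remaining ring subunits missed the threshold against wild-type oocytes. Lsm5 had log2 signals of 10.85, 10.89 and 10.58 in Dicer knockout, 9.99, 10.08 and 10.41 in Dgcr8 knockout and 10.46, 10.57 and 9.96 in wild-type oocytes, with a difference of 0.44 (limma adjusted p 0.119). Of its 3 probe sets, another with a lower mean gave a difference of 0.81 ± 0.19 (SE) and was called in the fit over all probe sets (limma adjusted p 0.0306). With the mean of the 3 probe sets Lsm5 was also called (limma adjusted p 0.0395). Lsm6 (0.40), Lsm7 (0.32), Lsm3 (0.19) and Lsm2 (-0.05) were not called. Over the 7 subunits, the median deviation from the wild-type mean was 0.38, 0.35 and 0.25 in the Dicer knockout arrays, -0.19, -0.15 and -0.02 in the Dgcr8 knockout arrays and 0.10, 0.19 and -0.26 in the wild-type arrays. Wild-type replicate 3 thus lay below the Dgcr8 knockout arrays, and the 3 Dicer knockout arrays above all the others.

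**Figure D3:**
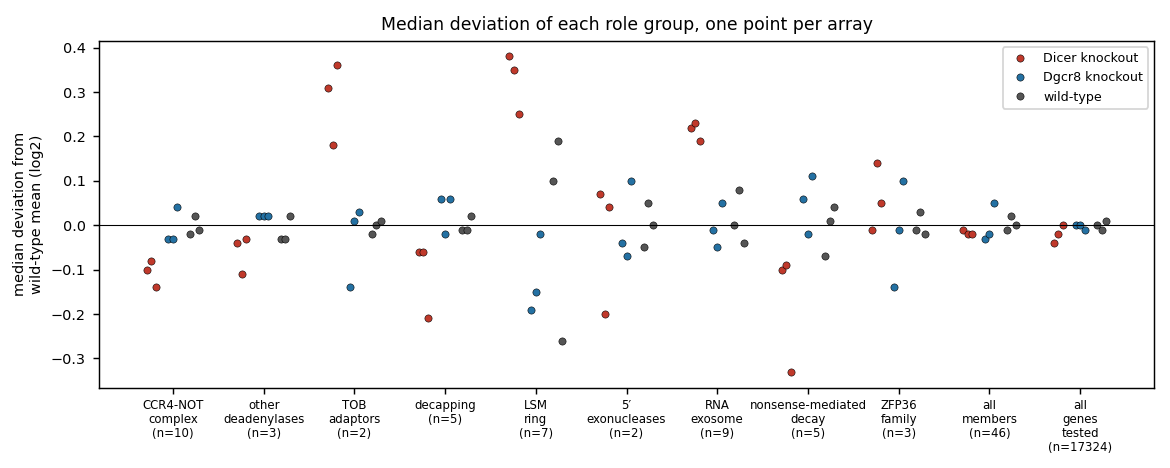
Median, over the members of each role group, of the deviation from the wild-type mean (log2), 1 point per array; from left to right within a group stand the Dicer knockout, Dgcr8 knockout and wild-type arrays. The Dicer knockout arrays lie above the other 6 for the LSM ring (0.25 to 0.38), the exosome (0.19 to 0.23) and the TOB adaptors (0.18 to 0.36). The TOB group holds 2 genes, Tob1 (log2 difference 0.59) and Tob2 (-0.02), so its shift follows Tob1. The Dicer knockout arrays lie below the other 6 for the CCR4-NOT complex (-0.14 to -0.08), decapping (-0.21 to -0.06) and nonsense-mediated decay (-0.33 to -0.09). Over all 46 members they lie between -0.02 and -0.01.

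The exonucleases that follow decapping were not called. Xrn1, which digests decapped RNA in the cytoplasm, had a log2 difference of 0.13, and its nuclear relative Xrn2 of -0.19, with Dicer knockout signals of 10.15, 9.88 and 10.16 below the wild-type signals of 10.19, 10.30 and 10.26 (limma adjusted p 0.166).

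The RNA exosome had 3 of 9 subunits called higher in Dicer knockout oocytes (4.87% of all genes), none lower, and 7 log2 differences above 0, against 42.1% of all genes. In either direction 17.5% of genes with a mean signal of at least 6 were called. Exosc9, a subunit of the exosome ring, had log2 signals of 9.41, 9.23 and 9.49 in Dicer knockout, 8.22, 7.74 and 8.56 in Dgcr8 knockout and 8.06, 8 and 7.98 in wild-type oocytes. The Dicer knockout arrays stood clear of the rest, and Exosc9 rose by 1.36 ± 0.17 (log2, SE), 2.57-fold (limma adjusted p 0.000758). Exosc2, an RNA-binding cap subunit, was at 7.82, 7.18 and 7.56 in Dicer knockout, 7.36, 7.09 and 6.85 in Dgcr8 knockout and 6.83, 7.02 and 6.80 in wild-type oocytes. It rose by 0.64 ± 0.17 (SE; limma adjusted p 0.0426), though the Dicer and Dgcr8 knockout arrays overlapped. The Exosc2 call was lost without wild-type replicate 1 (0.124), 2 (0.0682) or 3 (0.138), Dgcr8 knockout replicate 2 (0.0668), or Dicer knockout replicate 1 (0.136) or 3 (0.102). Exosc8, another ring subunit, was at 10.35, 10.27 and 10.31 in Dicer knockout, 10.13, 10.06 and 10.12 in Dgcr8 knockout and 10.13, 10.09 and 10.17 in wild-type oocytes. Its small rise of 0.17 ± 0.049 (SE; limma adjusted p 0.0479) lay just inside the threshold and was lost when any of 8 arrays was left out, that is all but replicate 2 of the Dicer knockout (0.0566 to 0.171).

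The other exosome genes were not called. Of the cap subunits, Exosc3 had a difference of 0.19 (limma adjusted p 0.0684, the value just outside the threshold) and Exosc1 of -0.24. Exosc3 was called without Dgcr8 knockout replicate 2 (0.0425). The ring subunits Exosc4, Exosc5 and Exosc7 had differences of 0.35, -0.15 and 0.28, and the nuclear ribonuclease Exosc10 of 0.12.

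In nonsense-mediated decay 1 of 5 genes was called, where 11.3% of all genes were, and 20.6% of those with a mean signal of at least 9. Smg1, the kinase that phosphorylates UPF1, had log2 signals of 8.90, 8.85 and 8.77 in Dicer knockout, 9.53, 9.23 and 9.51 in Dgcr8 knockout and 9.2, 9.2 and 9.25 in wild-type oocytes. The Dicer knockout arrays lay below the other 6, and Smg1 fell by 0.38 ± 0.088 (log2, SE; limma adjusted p 0.0209). The call was lost without wild-type replicate 1 (0.0597), 2 (0.0607) or 3 (0.0816) or Dicer knockout replicate 3 (0.0604). Smg6, the endonuclease of the pathway, was at 7.90, 7.98 and 7.91 in Dicer knockout and 8.10, 8.37 and 8.25 in wild-type oocytes, a difference of -0.31 that was not called (limma adjusted p 0.0823). The helicase Upf1 (0.00), its partner Upf2 (-0.19) and Smg5 (0.07) were not called.

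The ZFP36 proteins bind AU-rich elements and recruit CCR4-NOT. None of the 3 genes was called: Zfp36 had a log2 difference of -0.05, Zfp36l1 of -0.13 and Zfp36l2, which is needed for fertility of female mice, of 0.24. Zfp36l2 ranged from 7.48 to 7.71 in Dicer knockout, 6.84 to 7.55 in Dgcr8 knockout and 7.21 to 7.49 in wild-type oocytes.

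Beside the 12 calls, 12 more members had Dicer knockout and wild-type arrays that did not overlap without passing the test. In this way 52.2% of the members stood apart, against 26.2% of all genes. The latter share was not matched for signal, and calls were more frequent among genes of higher signal. Of the 24 members that stood apart, 10 stood higher and 14 lower. At an unadjusted p under 0.05 stood 24 of the 46 members by limma (52.2%), against 23.7% of all genes, a share likewise not matched for signal.

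Against Dgcr8 knockout oocytes, which lack the microRNA step but keep Dicer, 16 of the 46 members were called in Dicer knockout oocytes, 9 higher and 7 lower, where 13.4% of all genes were called (5.48% higher and 7.92% lower). Lsm4 and Exosc9 again differed by at least 2-fold, as 2.26% of all genes did, and 27 members (58.7%) had groups that did not overlap, against 26.1% of all genes. With a mean signal of at least 9 the shares called were 37.0% of 27 members and 24.4% of all genes, while the shares without overlap were not matched for signal. This comparison shares its Dicer knockout arrays with the one against wild-type oocytes, so the 2 are not independent. Lsm4 differed by 1.47, Exosc9 by 1.21, Tob1 by 0.58, Lsm1 by 0.44, Dcp2 by -0.35, Pan3 by -0.27, Smg1 by -0.59 and Cnot6 by -0.76 (log2; limma adjusted p between 0.000351 for Lsm4 and 0.0111 for Pan3), and these 8 calls were made under all 18 alternative fits. Against wild-type oocytes the same genes differed by 1.39, 1.36, 0.59, 0.49, -0.31, -0.22, -0.38 and -0.66.

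The ring subunits Lsm5 (0.61), Lsm6 (0.78) and Lsm7 (0.50) were also called against Dgcr8 knockout oocytes (limma adjusted p 0.0317, 0.0447 and 0.0159). This made 5 of 7 in the ring called higher, where 5.48% of all genes were, while 2 of 7 were called against wild-type oocytes. In Dgcr8 knockout against wild-type oocytes Lsm5, Lsm6 and Lsm7 had log2 differences of -0.17, -0.38 and -0.18, none called. The gap between the knockouts thus holds a lower Dgcr8 knockout mean as well as a higher Dicer knockout mean for these 3 genes. In the fit over all probe sets none of the 3 probe sets of Lsm6 was called (limma adjusted p 0.0614, 0.0731 and 0.0797). There the Lsm5 probe set used here was not called either (0.0545), while its other probe sets (0.0076 and 0.0388) and those of Lsm7 (0.0287 and 0.0358) were. Lsm7 had signals of 10.20, 10.13 and 10.25 in Dicer knockout and 9.68, 9.59 and 9.81 in Dgcr8 knockout oocytes. Without Dgcr8 knockout replicate 2 none of these 3 genes was called (0.102 for Lsm5, 0.0720 for Lsm6 and 0.0623 for Lsm7). The members called were then 10 instead of 16, and the calls over all genes 1762 instead of 2321. The 3 were also lost without Dgcr8 knockout replicate 1 (0.113, 0.150 and 0.0525) or Dicer knockout replicate 1 (0.102, 0.136 and 0.0511), Lsm5 and Lsm6 without Dicer knockout replicate 2 (0.0864 and 0.0797), and Lsm6 without wild-type replicate 1 (0.0644) or 2 (0.0576) or Dgcr8 knockout replicate 3 (0.0716).

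The endonuclease Smg6 was lower against Dgcr8 knockout oocytes (-0.41, limma adjusted p 0.0242). Its call was lost without replicate 1 (0.0923) or 3 (0.0584) of the Dgcr8 knockout or Dicer knockout replicate 1 (0.0699) or 3 (0.0585). The other calls were Cnot6l (-0.19, limma adjusted p 0.0114), Cnot1 (-0.25, 0.0179), Exosc3 (0.25, 0.0191) and Exosc8 (0.20, 0.0217). Cnot1 was lost without Dgcr8 knockout replicate 2 (0.0602) or 3 (0.0657), Exosc3 without Dgcr8 knockout replicate 2 (0.0577), and Exosc8 without replicate 1 (0.0526) or 2 (0.0720) of the Dgcr8 knockout or Dicer knockout replicate 1 (0.0686). Exosc2 was not called against Dgcr8 knockout oocytes (0.42, limma adjusted p 0.156), but was without Dicer knockout replicate 2 (0.0404).

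Related genes of the module were set against each other within each array, which leaves out any difference shared by the pair. Cnot6 minus Cnot6l was -3.13, -3.37 and -2.92 in Dicer knockout and -2.61, -2.58 and -2.71 in wild-type oocytes, a difference of -0.50 between the genotypes. Tob1 minus Tob2 was 0.05, -0.20 and 0.09 in Dicer knockout and -0.59, -0.53 and -0.74 in wild-type oocytes, a difference of 0.60. Xrn1 minus Xrn2 differed by 0.31, Cnot7 minus Cnot8 by 0.17 and Dcp1a minus Dcp1b by -0.04. In the first 4 pairs the Dicer knockout and wild-type arrays did not overlap. The two-sided exact permutation p was 0.1, the smallest that 3 arrays against 3 allow (0.125 adjusted over the 5 pairs), and Dcp1a minus Dcp1b gave 0.900. No pair could therefore pass a threshold of 0.05, and the pairs were chosen with the values known. The Dgcr8 knockout arrays were not part of this test. For Cnot7 minus Cnot8 they were at 1.07, 0.88 and 1.09, overlapping with the Dicer knockout arrays (1.03, 1.10 and 1.02). In the Cnot6, Tob1 and Xrn1 pairs they lay apart from the Dicer knockout arrays.

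**Figure D4:**
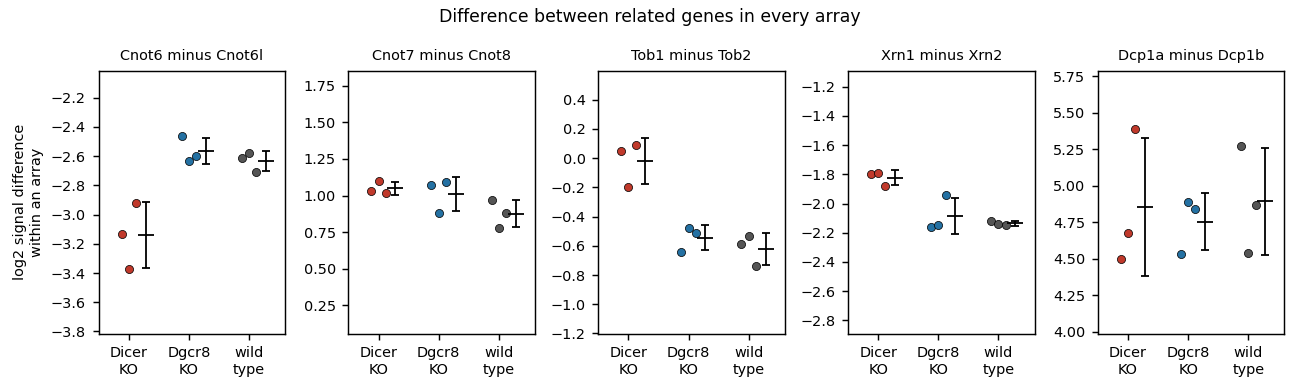
Log2 signal of the first gene minus that of the second within each array, for 5 pairs of related genes, 1 point per array, with the mean and SD of the 3 arrays beside them; all panels span the same height. The Dicer knockout arrays lie below the wild-type arrays for Cnot6 minus Cnot6l and above them for Tob1 minus Tob2, and overlap with them for Dcp1a minus Dcp1b.

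The wider decay pathway was followed through 84 further genes, of which 74 were tested. In Dicer knockout against wild-type oocytes 11 were called (14.9%, against 11.3% of all genes), 3 higher and 8 lower, where 4.87% and 6.47% of all genes were. Their median log2 difference was -0.08, against -0.03 over all genes. Pabpc1, the main cytoplasmic poly(A)-binding protein of somatic cells, had log2 signals of 9.17, 9.45 and 8.87 in Dicer knockout, 8.18, 8.37 and 8.36 in Dgcr8 knockout and 8.02, 8.3 and 8 in wild-type oocytes. It rose by 1.06 ± 0.14 (log2, SE; limma adjusted p 0.00120). Ddx6, a helicase that joins CCR4-NOT to the decapping factors, rose by 0.76 ± 0.16 (SE; limma adjusted p 0.0112; 0.0521 without wild-type replicate 3). Dis3l, the catalytic subunit of the cytoplasmic exosome, rose by 0.24 (limma adjusted p 0.0195; 0.0779 and 0.0839 without wild-type replicates 2 and 3).

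The 8 genes called lower had log2 differences between -0.70 and -0.19. Zc3h12c, a relative of the regnase nuclease, had a log2 difference of -0.42, with signals of 9.97, 10.02 and 10.03 in Dicer knockout and 10.35, 10.43 and 10.50 in wild-type oocytes (limma adjusted p 0.00101). Angel2, a relative of the CCR4-type nucleases (-0.30), the nuclear poly(A)-binding protein Pabpn1 (-0.23) and Paip2b, an inhibitor of poly(A)-binding protein (-0.22), were called with limma adjusted p between 0.00531 and 0.00604. Btg2, an adaptor of the same family as Tob1, had the lowest difference (-0.70), with 6.5, 6.57 and 7.21 in Dicer knockout and 7.44, 7.4 and 7.54 in wild-type oocytes. Its limma adjusted p of 0.0297 missed the threshold without wild-type replicate 1 (0.0778), 2 (0.0699) or 3 (0.105) or Dicer knockout replicate 1 (0.104) or 2 (0.0853). The RNA-binding protein Pum2 (-0.33, 0.0190), the methyladenosine reader Ythdf3 (-0.21, 0.0201) and Ttc37, a partner of the cytoplasmic exosome (-0.19, 0.0344), were called too. Pum2 was lost without wild-type replicate 2 (0.0553) or 3 (0.0819) or Dicer knockout replicate 1 (0.0695). Ythdf3 was lost without wild-type replicate 2 (0.0603) or 3 (0.0883) or Dicer knockout replicate 2 (0.0501) or 3 (0.0536). Ttc37 was lost without wild-type replicate 1 (0.0645), 2 (0.114) or 3 (0.122) or Dicer knockout replicate 1 (0.0868) or 2 (0.0679). Btg4, the adaptor that brings CCR4-NOT to maternal RNA in mouse oocytes, had a difference of -0.07 and was not called; it is named outside the naming rule, with its value known. In Dgcr8 knockout against wild-type oocytes limma called 0 of the 74, with 1 at an unadjusted p under 0.05.

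**Figure D5:**
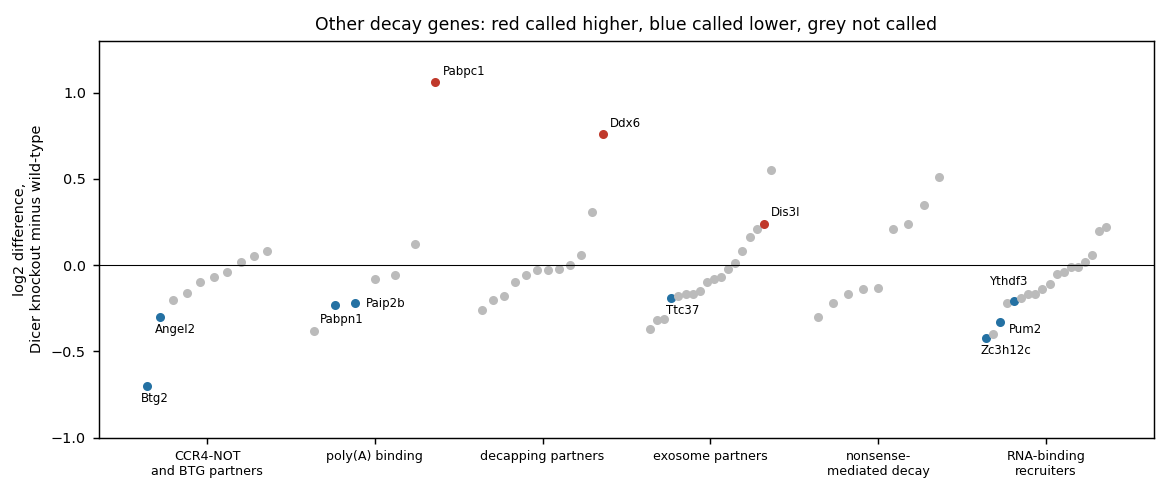
Log2 difference of 74 further decay genes in Dicer knockout minus wild-type oocytes, 1 point per gene, ordered by value within each group; red points are called higher, blue points lower and grey points not called. Pabpc1 (1.06) and Ddx6 (0.76) are the highest points and Btg2 (-0.70) the lowest.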

How the data were processed

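The authors deposited log2 signals per probe set and array, made with GCRMA per the submitters' processing notes. GCRMA models background from probe sequence, normalizes the arrays together and gives 1 value per probe set. The sources used here do not give its version. Values are relative, so a change shared by all transcripts would not show, and nothing was normalized again. Array medians lay between 5.48 and 5.58. Of 35557 probe sets, the platform annotation names 1 gene for 21789. The tests used limma 3.58.1 under R 4.3.3, with lmFit and with eBayes (trend, robust), were two-sided, and took all 9 arrays in 1 fit without covariates. Benjamini-Hochberg adjustment ran over all 17324 genes tested. The fit was tested on simulated data. Precision is limited by the number of arrays, with a median 95% half-width of 0.20 for a member's log2 difference. Every member could be named, and of the further genes those called against wild-type oocytes, with exceptions stated where they occur. The members and lists were chosen with earlier results of these data known. Alternatives changed the filter, scaling, probe sets, eBayes settings, arrays, weights, block and thresholds.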

Additional observations from a re-analysis of the deposited data

How the results depend on the processing

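Of the 12 members called in Dicer knockout against wild-type oocytes, 6 were called under all 18 alternative fits. With 1 array left out the count was 6 to 11, lowest without wild-type replicates 2 or 3 (6 each) and 7 without replicate 1; at an adjusted p under 0.01 it was 5, and 2 with at least a 2-fold change. Against Dgcr8 knockout oocytes the 16 members became 10 to 17 with 1 array left out, 7 at 0.01 and 2 at 2-fold. In Dgcr8 knockout against wild-type oocytes the count stayed at 0 in each alternative.

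Over all genes, 1964 calls against wild-type oocytes became 1238 to 1959 with 1 array left out (1238 without wild-type replicate 3), 981 at 0.01 and 358 at 2-fold. The 2321 against Dgcr8 knockout oocytes became 1511 to 2248 (1511 without Dgcr8 knockout replicate 1), 1127 and 391. The 4 in the Dgcr8 knockout became 2 to 4, and 2 with the 6 arrays of the compared groups alone. Left-out arrays moved the members' median log2 difference between -0.0395 and -0.00434 in Dicer knockout against wild-type oocytes, and between -0.0334 and 0.0168 against Dgcr8 knockout oocytes. With the replicate number as a block, 11 members were called against wild-type oocytes, Exosc8 being lost (0.0685), and against Dgcr8 knockout oocytes Lsm6 (0.0587) and Smg6 (0.0540) were lost. When all probe sets of a gene were averaged, Cnot1 was lost against wild-type (0.0837) and Exosc3 against Dgcr8 knockout oocytes (0.165). Without the trend and robust settings Cnot1 (0.0572), Cnot6l (0.0822), Lsm6 (0.0602) and Exosc8 (0.0572) were lost against Dgcr8 knockout oocytes, and of the further genes Ttc37 (0.0946) and Ythdf3 (0.0732) against wild-type. Same-numbered arrays correlated in their deviations from the group means at -0.24 to 0.11, and 2 of 9 arrays correlated best with their own number, so the numbers were not taken as pairs. Where calls were lost, the cause was not tested.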

Other observations

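Some further decay genes outside the naming rule differed between the knockouts, and were singled out after their values were seen. In Dicer knockout against Dgcr8 knockout oocytes 14 of the 74 were called (18.9%, against 13.4% of all genes), 4 higher and 10 lower, where 5.48% and 7.92% of all genes were. Rbm8a, a core subunit of the exon junction complex, had mean log2 signals of 10.13 ± 0.36 in Dicer knockout and 9.37 ± 0.12 in Dgcr8 knockout oocytes (SD, n = 3 each; limma adjusted p 0.0106). Pelo, which rescues stalled ribosomes, was at 6.5 ± 0.12 in Dicer knockout and 7.09 ± 0.28 in Dgcr8 knockout oocytes (SD, n = 3 each; limma adjusted p 0.0271). Tut7, a terminal uridylyl transferase that marks short-tailed RNA in mouse oocytes, was at 8.32 ± 0.076 in Dicer knockout and 8.75 ± 0.096 in Dgcr8 knockout oocytes (SD, n = 3 each; limma adjusted p 0.0140). Gspt1, the release factor, was at 10.57 ± 0.058 in Dicer knockout and 10.77 ± 0.094 in Dgcr8 knockout oocytes (SD, n = 3 each; limma adjusted p 0.0437). Against wild-type oocytes none of these 4 was called (limma adjusted p 0.0696, 0.167, 0.0563 and 0.0788). The repression partners Tnrc6a, Tnrc6b and Tnrc6c, which carry CCR4-NOT to microRNA targets, had log2 differences of 0.02, -0.17 and -0.05 in Dicer knockout against wild-type oocytes, and none was called.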
